A study of Homo sapiens with 9 samples.

Results

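The genes described here encode integrin subunits, laminin chains, collagen chains and 8 further matrix proteins (FN1, TNC, FBLN1, NID1, NID2, HSPG2, SPARC and THBS1). They were taken by gene name from the transcript count table, with the transcript of the highest total count standing for each gene. The rule found 87 of 20878 genes: 41 collagens, 18 alpha and 8 beta integrins, 12 laminins and the 8 other matrix genes. Of these, 52 had enough reads to be tested, and the remaining 35 had at most 13 counts in any library.

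Messenger RNA was sequenced from SW480, a line of human colorectal cancer cells without functional APC, and from 2 lines made from it. The APC line (clone D2.15) carried the pEF vector with myc-tagged APC, the CONTROL line (clone R38.7) carried the empty pEF vector, and the SW480 line was the untransfected parent. Polyadenylated RNA was collected 72 h after plating from 3 plates of each line. The APC and CONTROL lines were kept in 1.5 mg/ml G418, a selection drug that SW480 did not receive. Fewer cells of the APC line were plated, with cell numbers per plate in the proportion 2 to 3.35 for CONTROL and for SW480. All lines descend from APC-defective SW480, and each derived line is 1 clone, so the APC construct cannot be told apart from other differences between these clones. Plates of 1 line are parallel cultures, so that p-values reflect the spread of plates alone.

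Total counts over genes ranged from 16456738 (CONTROL replicate 2) to 19358025 (CONTROL replicate 3). APC itself stood at 11.9, 11.8 and 11.3 RPKM (reads scaled to transcript length and library size) in the APC libraries, against 3.93, 3.75 and 4.01 in CONTROL and 3.86, 4.11 and 4.21 in SW480. All 7 colon epithelial markers had reads in every group, and 3 (EPCAM, CDH1 and VIL1) were higher and 2 (CDX2 and KRT18) lower in the APC line in both comparisons. EPCAM stood at 195 ± 9.40 RPKM in the APC line, 21.7 ± 0.858 in CONTROL and 25.7 ± 0.669 in SW480, and CDX2 at 5.54 ± 0.192 RPKM in the APC line, 9.24 ± 0.682 in CONTROL and 10.3 ± 0.831 in SW480 (mean ± SD, n = 3 each). The fibroblast markers had a summed CPM (counts scaled to library size) of 676 to 679 over the APC libraries, 986 to 1042 over CONTROL and 1064 to 1145 over SW480, and VIM, at 274 ± 2.07, 407 ± 10.6 and 455 ± 16.9 RPKM, made up nearly all of it. Of these markers DCN and POSTN had no entry among the deposited counts, and LUM, FAP, THY1 and PDGFRA lay below the level tested. The 4 tested (VIM, ACTA2, TAGLN, PDGFRB) were lower in the APC line in both comparisons. Their part in the matrix gene results was not tested. In bulk libraries, fewer cells with a transcript and less of it per cell cannot be told apart.

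Integrins are membrane receptors made of 1 alpha and 1 beta subunit, and they tie the cytoskeleton to proteins of the matrix outside the cell. Laminins, trimers of an alpha, a beta and a gamma chain, and type IV collagen form the basement membrane on which an epithelium such as that of the colon rests. Fibronectin, fibrillar collagens and matricellular proteins such as thrombospondin belong to the looser matrix or act on the cells within it.

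In the APC line most of the tested members were at another level than in both other lines, and members of the same family moved in both directions. Most integrin beta genes and the epithelial laminin genes LAMA3 and LAMB3 were higher, while fibronectin, fibulin and several collagens were lower. LAMB3, though, was only 1.14-fold above CONTROL. Against SW480, 26 of the 52 members were higher and 21 lower, beside 35.6% higher and 36.9% lower of all genes, so 90.4% of members were called, where 72.5% of all 14255 genes tested were called at an adjusted p under 0.05 (quasi-likelihood test of edgeR with Benjamini-Hochberg adjustment). Against CONTROL, 28 were higher and 16 lower (34.8% and 35.4% of all genes), or 84.6% of members, where 70.2% of all genes were called. The 3 APC libraries did not overlap the 3 SW480 libraries for 46 of the 52 members, nor the 3 CONTROL libraries for 46, where 73.1% and 73.4% of all genes showed no such overlap (counts scaled by TMM library sizes).

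The sizes of the differences can be set beside those of all genes. For the members, the absolute log2 fold change had a median of 1.24 against SW480 and 0.99 against CONTROL, beside 0.35 and 0.34 over all genes tested. The signed medians were 0.11 and 0.44, beside −0.01 for both comparisons over all genes, and they were the same with COL17A1, which had no SW480 reads, set at its bound. CONTROL and SW480 differed too: 10 members were higher and 24 lower in CONTROL (25.3% and 24.7% of all genes), or 65.4% of members, where 50% of all genes were called, with a median absolute log2 fold change of 0.42 beside 0.19. Their libraries did not overlap for 35 members (67.3%), beside 56.6% of all genes.

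Both comparisons use the same APC libraries and are given side by side. In both, 25 members were higher in the APC line and 15 lower, or 76.9% of the members, where 55.8% of all genes were called in 1 direction in both (27.8% higher, 28% lower). Outside the laminins, the higher and lower members numbered 6 and 1 of 7 beta integrins, 6 and 2 of 11 alpha integrins, 6 and 7 of 20 collagens, and 3 and 3 of 7 other matrix genes. Of the other 12 members, COL9A3 and ITGA5 were called in opposite directions, 7 were called in 1 comparison and COL1A1, COL6A2 and COL9A2 in neither.

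**Figure D1:**
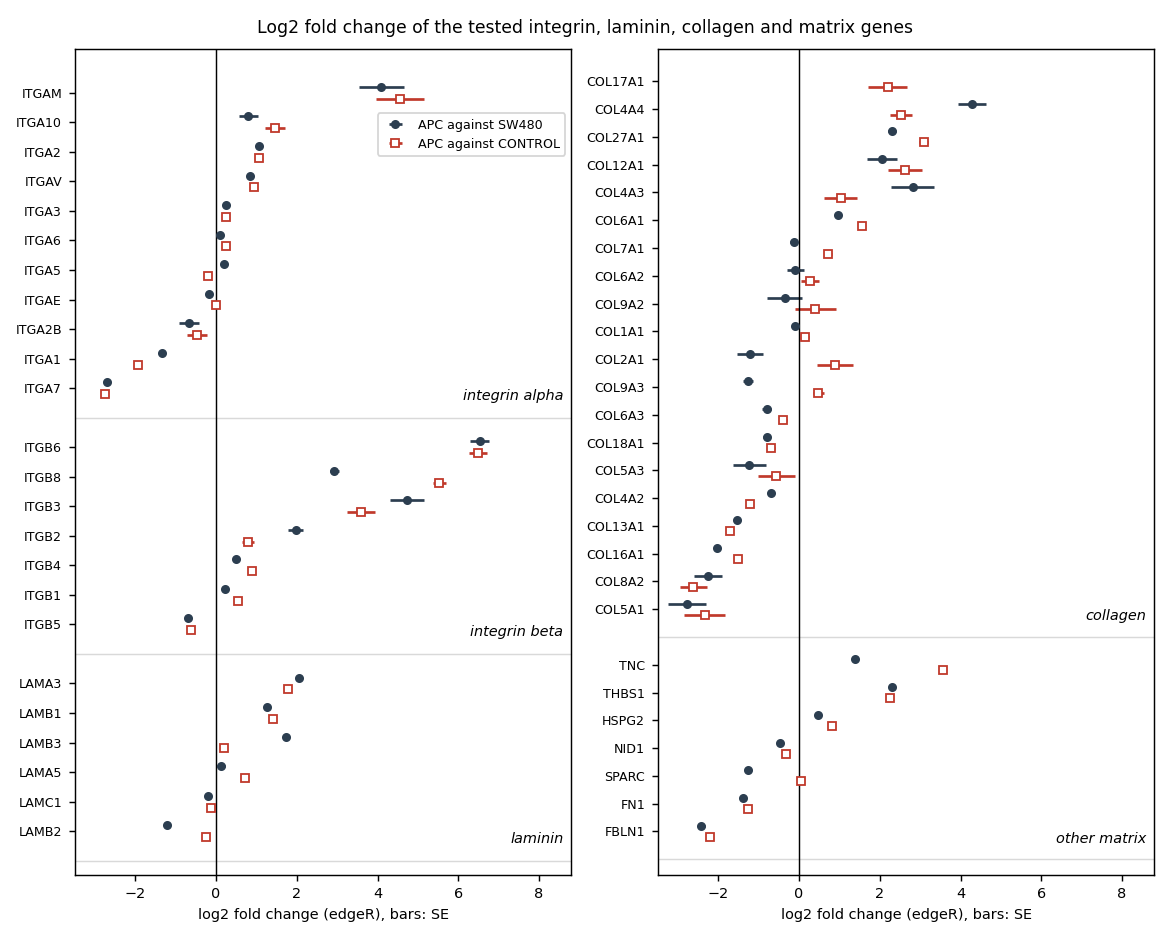
Log2 fold change from edgeR (horizontal axis) with its SE (bars) for 51 of the tested genes, ordered within each family by the sum of their 2 changes. Filled circles show APC against SW480 and open squares APC against CONTROL. ITGB6 lies farthest to the right and the lowest values are those of ITGA7 and COL5A1. COL17A1 against SW480 is not drawn because SW480 had 0 counts.

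Among the laminins, LAMA3 encodes an alpha chain of the laminin that anchors epithelial cells at hemidesmosomes. Its level was 9.23, 9.05 and 9.76 RPKM in the APC libraries, 2.83, 2.56 and 2.77 in CONTROL and 2.07, 2.48 and 2.35 in SW480. It was 4.15-fold higher than in SW480 (log2 fold change 2.05 ± 0.06, SE; adjusted p = 3.71e-26, edgeR) and 3.46-fold higher than in CONTROL (1.79 ± 0.05; adjusted p = 1.05e-24, edgeR). The APC libraries stood apart, while CONTROL and SW480 lay close together, with CONTROL the higher (0.27 ± 0.06; adjusted p = 0.000778, edgeR).

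LAMB3, the gene of its beta chain, followed another pattern. Its libraries stood at 15.7, 15.0 and 15.3 RPKM in APC and 13.3, 13.6 and 13.8 in CONTROL, against 4.54, 4.62 and 4.88 in SW480. APC and CONTROL were thus close to each other and both well above SW480. LAMB3 was 3.34-fold higher in APC than in SW480 (log2 fold change 1.74 ± 0.05; adjusted p = 1.34e-24, edgeR) but 1.14-fold higher than in CONTROL (0.18 ± 0.05; adjusted p = 0.000781, edgeR), and CONTROL was 2.94-fold higher than SW480 (1.56 ± 0.05; adjusted p = 9.28e-22, edgeR). Most of the LAMB3 difference from the parent was therefore also present in the clone with the empty vector.

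The 300 bases around the transcription start (250 before and 50 after it) are shown for LAMA3 and LAMB3 because these were the laminin genes whose start windows held the AP-1 motif TGACTCA, searched on both strands (TGAGTCA on the other). The sequences are those of RefSeq on GRCh38.p14, read 5′ to 3′ on the strand of the gene, with the motif in capitals. The LAMA3 window is chr18:23872770-23873069 on the plus strand, and its start lies inside the gene, near the first exon of the shorter transcript. The LAMB3 window is chr1:209651325-209651624 on the minus strand, and the 2 other LAMB3 windows of RefSeq held no such motif.
LAMA3: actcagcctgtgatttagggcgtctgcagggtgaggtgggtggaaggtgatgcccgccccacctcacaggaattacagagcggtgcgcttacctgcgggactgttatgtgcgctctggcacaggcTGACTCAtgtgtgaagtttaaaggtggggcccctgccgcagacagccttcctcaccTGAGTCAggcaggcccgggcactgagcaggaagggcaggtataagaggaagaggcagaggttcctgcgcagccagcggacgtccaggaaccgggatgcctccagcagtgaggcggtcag
LAMB3: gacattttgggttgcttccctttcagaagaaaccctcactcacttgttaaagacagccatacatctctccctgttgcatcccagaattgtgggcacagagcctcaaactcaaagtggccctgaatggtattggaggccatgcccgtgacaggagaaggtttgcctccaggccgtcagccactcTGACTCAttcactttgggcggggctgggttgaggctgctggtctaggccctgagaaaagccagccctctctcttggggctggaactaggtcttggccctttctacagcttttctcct
The motif begins 125 and 69 bases before the RefSeq start of the window in LAMA3 and 67 bases before it in LAMB3. GENCODE places the start of the shorter LAMA3 transcript elsewhere in this window, at position 23872840, upstream of both motifs. The LAMA3 distances therefore hold for the RefSeq start only. Among the members, 64 of 87 had an entry, with 82 windows, and the AP-1 motif was found in 3 of these windows (LAMA3, LAMB3 and ITGA5), beside 4.95% of all 35116 windows. The TCF/LEF motifs CTTTGAA and CTTTGAT, searched on both strands (TTCAAAG and ATCAAAG on the other), were found in 4 member windows (COL13A1, COL24A1, ITGAM and LAMA2), beside 6.86% of all. A match describes the letters and not a bound site. ITGB4 had no entry.

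LAMA3 had reads on transcripts of different length. The deposited lengths were 10505 bases for the longer and 5617 for the shorter transcript, which begins at an internal start (chr18, position 23872840, against 23689443 for the longer, in GENCODE on GRCh38). The shorter had 1830, 1715 and 1838 counts in the APC libraries, against 468, 365 and 467 in CONTROL and 357, 405 and 408 in SW480. A read on shared exons was counted for both, so the count of the longer minus that of the shorter gives the reads on the upstream exons, less the few on bases that only the shorter has. This difference was 212, 156 and 154 in the APC libraries, 158, 133 and 170 in CONTROL and 93, 136 and 111 in SW480.

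In counts not scaled to library size, the upstream reads thus overlapped between the APC and CONTROL libraries, while those of the shorter transcript did not. Upstream reads made up 8.82 ± 1.39% of the longer transcript's count in the APC line, against 26.2 ± 0.842% in CONTROL and 22.4 ± 2.40% in SW480 (SD, n = 3 each). Scaled to library size they were 1.16 times the CONTROL value and 1.57 times the SW480 value. On this scale every APC library lay above every CONTROL library, though narrowly. No test was run on these differences of counts.

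**Figure D2:**
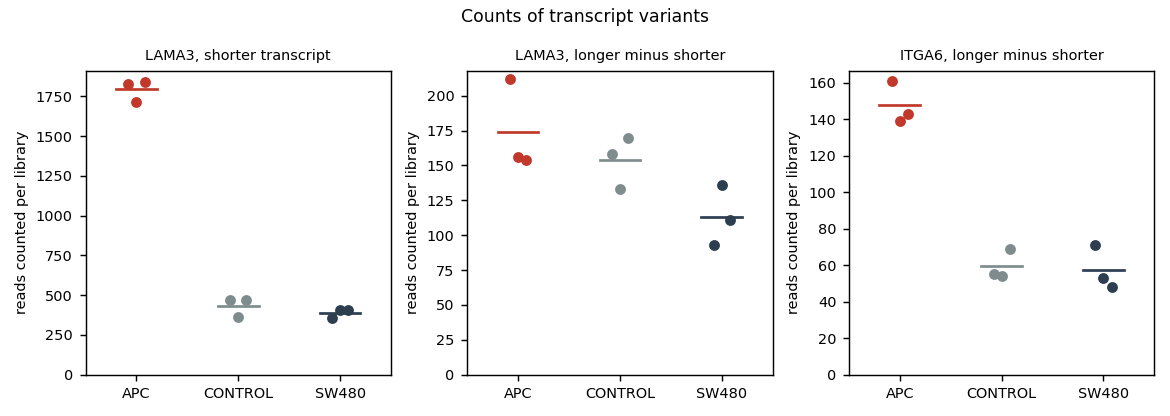
Reads per library (vertical axes, starting at 0) for the shorter LAMA3 transcript, for the longer minus the shorter LAMA3 transcript, and for the longer minus the shorter ITGA6 transcript. Points are libraries and lines are group means. Reads are not scaled to library size. The shorter LAMA3 transcript separates APC from the other lines, while the upstream LAMA3 reads overlap between APC and CONTROL on this unscaled axis. The ITGA6 difference is 139 to 161 reads in APC, against 54 to 69 in CONTROL and 48 to 71 in SW480.

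The other laminin chains belong to trimers of wider distribution. LAMB1, the beta-1 chain gene, stood at 34.0, 33.4 and 34.0 RPKM in the APC libraries, 13.2, 12.4 and 12.8 in CONTROL and 13.5, 14.5 and 14.9 in SW480. It was 2.42-fold higher than in SW480 and 2.66-fold higher than in CONTROL (log2 fold changes 1.27 ± 0.04 and 1.41 ± 0.04; adjusted p = 3.71e-24 and 2.49e-25, edgeR). Its partner LAMC1, the gamma-1 chain gene, was slightly lower instead, with log2 fold changes of −0.19 ± 0.04 against SW480 and −0.13 ± 0.04 against CONTROL (adjusted p = 6.52e-05 and 0.00322, edgeR). The LAMC1 libraries read 18.9, 19.4 and 19.9 RPKM in APC, 22.1, 20.8 and 21.4 in CONTROL and 21.6, 22.8 and 23.5 in SW480.

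LAMB2, the beta-2 chain gene, stood at 9.09, 8.37 and 9.52 RPKM in APC, 11.1, 11.1 and 10.2 in CONTROL and 21.2, 22.8 and 20.5 in SW480. It was 2.34-fold lower than in SW480 (log2 fold change −1.23 ± 0.05; adjusted p = 8.47e-21, edgeR) and 1.19-fold lower than in CONTROL (−0.25 ± 0.05; adjusted p = 7.29e-05, edgeR). As with LAMB3, the larger step lay between the parent and both clones, here downward, with CONTROL against SW480 at −0.97 ± 0.05 (adjusted p = 3.31e-17, edgeR). LAMA5, the alpha-5 chain gene, read 56.3, 45.1 and 47.8 RPKM in APC, 29.4, 31.0 and 31.8 in CONTROL and 48.8, 48.0 and 43.3 in SW480. APC was 1.63-fold higher than CONTROL (0.71 ± 0.09; adjusted p = 0.000218, edgeR). Against SW480 the LAMA5 libraries overlapped (0.12 ± 0.09; adjusted p = 0.258, edgeR), a difference that passed the test when APC replicate 2 was left out (0.20; adjusted p = 0.0267, edgeR).

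**Figure D3:**
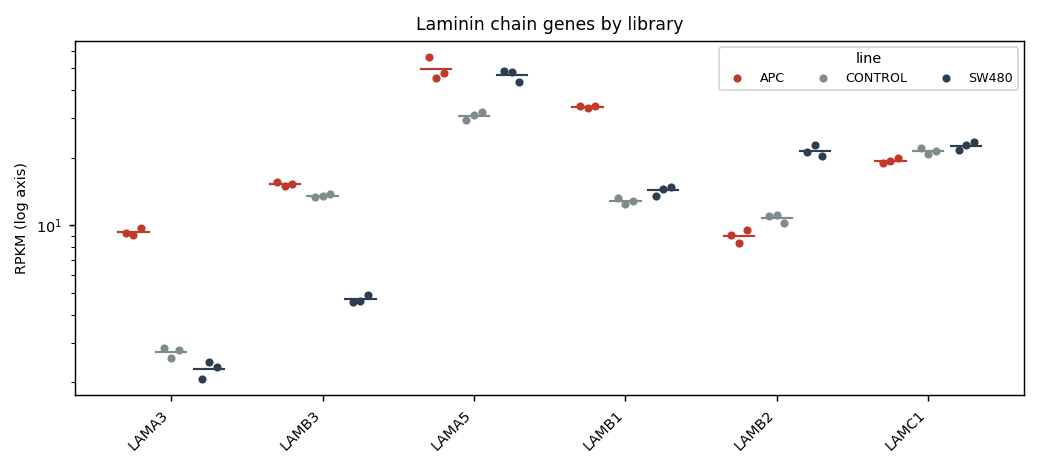
RPKM per library (log axis) of 6 tested laminin genes. Points are libraries and lines group means. LAMA3 and LAMB1 separate APC from both other lines, LAMB3 and LAMB2 separate SW480 from APC and CONTROL, and LAMC1 lies between 18.9 and 23.5 RPKM throughout.

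Among the beta integrins, ITGB6 had the largest difference. Its product pairs with that of ITGAV to form an epithelial receptor that activates latent TGF-beta. ITGB6 stood at 5.19, 4.81 and 5.17 RPKM in the APC libraries, against 0.0793, 0 and 0.0764 in CONTROL and 0.0403, 0.0602 and 0.0596 in SW480. It was near the limit of detection outside the APC line. The difference was 92.5-fold from SW480 (log2 fold change 6.53 ± 0.23; adjusted p = 5.81e-23, edgeR) and 89.8-fold from CONTROL (6.49 ± 0.23; adjusted p = 8.3e-23, edgeR), both on few reads in the lower line.

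ITGB8 and ITGB3 encode further partners of the ITGAV product. ITGB8 read 1.93, 2.41 and 2.39 RPKM in APC, 0.0596, 0.0246 and 0.0573 in CONTROL and 0.308, 0.307 and 0.288 in SW480. It was 7.60-fold higher than in SW480 (log2 fold change 2.93 ± 0.12; adjusted p = 1.44e-21, edgeR) and 46.2-fold higher than in CONTROL (5.53 ± 0.17; adjusted p = 7.54e-25, edgeR). CONTROL lay 6.08-fold below SW480 (−2.60 ± 0.26; adjusted p = 5.1e-10, edgeR), so the clones moved away from the parent in opposite directions. ITGB3 was low in all lines, at 0.398, 0.322 and 0.389 RPKM in APC, 0.0388, 0.0220 and 0.0280 in CONTROL and 0.0197, 0.00982 and 0.00973 in SW480, with log2 fold changes of 4.73 ± 0.41 against SW480 and 3.59 ± 0.35 against CONTROL (adjusted p = 3.15e-12 and 5.23e-11, edgeR).

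ITGB5, another partner of the ITGAV product and a vitronectin receptor subunit, was the beta integrin that was lower in APC. It stood at 64.0, 66.3 and 64.1 RPKM in APC, 101, 102 and 98.5 in CONTROL and 106, 107 and 112 in SW480. APC was 1.63-fold lower than SW480 (log2 fold change −0.71 ± 0.04; adjusted p = 4.04e-18, edgeR) and 1.54-fold lower than CONTROL (−0.62 ± 0.04; adjusted p = 1.56e-16, edgeR), with no overlap of libraries. In every APC library its level per length still lay far above that of ITGB6.

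ITGB1, the beta subunit with the most partners, read 69.9, 73.8 and 72.1 RPKM in APC, 50.7, 48.3 and 50.1 in CONTROL and 62.1, 62.2 and 64.1 in SW480. The APC libraries were above all others, by 1.17-fold over SW480 (log2 fold change 0.23 ± 0.04; adjusted p = 1.09e-06, edgeR) and 1.46-fold over CONTROL (0.54 ± 0.04; adjusted p = 3.3e-15, edgeR). With ITGB5 lower and ITGB1 higher, the beta subunit with the highest level per length was ITGB1 in APC and ITGB5 in CONTROL and SW480. ITGB5 held 34.1% of summed beta integrin RPKM in APC, 57.3% in CONTROL and 53.0% in SW480, and ITGB1 held 37.8%, 28.3% and 30.8% in those lines.

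ITGB4 pairs with ITGA6 in the laminin receptor of hemidesmosomes. It stood at 44.8, 42.2 and 45.4 RPKM in APC, 23.6, 24.5 and 24.0 in CONTROL and 34.5, 30.8 and 31.4 in SW480, and was 1.40-fold higher than in SW480 (log2 fold change 0.49 ± 0.04; adjusted p = 1.63e-12, edgeR) and 1.85-fold higher than in CONTROL (0.89 ± 0.04; adjusted p = 3.21e-19, edgeR). No ITGB4 library of APC overlapped those of the other lines. ITGB2, the beta subunit of leukocyte integrins, read 1.68, 1.60 and 1.61 RPKM in APC, 1.21, 0.925 and 0.723 in CONTROL and 0.448, 0.330 and 0.490 in SW480, with log2 fold changes of 1.97 ± 0.19 against SW480 and 0.79 ± 0.16 against CONTROL (adjusted p = 2.16e-11 and 3.91e-05, edgeR). The leukocyte markers summed to 1.65 to 2.16 CPM in APC, 0.799 to 1.45 in CONTROL and 2.42 to 2.53 in SW480. PTPRC had no entry among the deposited counts. The part of the leukocyte markers in the ITGB2 result was not tested.

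ITGA6 was the alpha subunit with the highest level per length in each line, at 63.1, 66.5 and 66.0 RPKM in APC, 56.1, 54.6 and 55.5 in CONTROL and 60.6, 61.2 and 64.3 in SW480. The difference from CONTROL was 1.19-fold (log2 fold change 0.25 ± 0.04; adjusted p = 3.78e-07, edgeR). That from SW480 was 1.07-fold (0.10 ± 0.04; adjusted p = 0.0121, edgeR), overlapped between libraries in RPKM but not in the scaled counts used above, and was not called by limma on log2 RPKM (adjusted p = 0.0899 and 0.0910 with pseudocounts of 1 and 0.1).

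ITGA6 also had reads on transcripts of different length. The longer, by 130 bases, has a coding sequence of 1073 codons, against 1091 for the shorter in GENCODE, and the difference between their counts was 161, 139 and 143 reads in the APC libraries, 55, 54 and 69 in CONTROL and 71, 53 and 48 in SW480. Every APC library thus lay above every other library. As a share of the longer transcript's count this was 1.94 ± 0.131% in APC, 0.900 ± 0.0904% in CONTROL and 0.767 ± 0.186% in SW480 (SD, n = 3 each). For ITGA3, which encodes another laminin receptor subunit and has transcripts that differ by 142 bases, the share was 3.85 ± 0.307% in APC, 3.76 ± 0.401% in CONTROL and 4.19 ± 0.192% in SW480. Such a difference is the reads on bases of the longer transcript less those on bases of the shorter, and it was not tested.

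ITGAV, the shared partner of ITGB3, ITGB5, ITGB6 and ITGB8, was higher in APC. It stood at 30.9, 31.7 and 31.8 RPKM in APC, 16.3, 15.9 and 17.2 in CONTROL and 18.1, 18.4 and 17.8 in SW480, 1.78-fold above SW480 (log2 fold change 0.83 ± 0.04; adjusted p = 5.24e-20, edgeR) and 1.92-fold above CONTROL (0.94 ± 0.04; adjusted p = 1.71e-21, edgeR). ITGA2, a collagen receptor subunit, read 7.04, 6.62 and 6.53 RPKM in APC, 3.52, 2.88 and 3.27 in CONTROL and 3.30, 3.15 and 3.44 in SW480. Its difference was 2.09-fold from SW480 and 2.10-fold from CONTROL (log2 fold changes 1.06 ± 0.06 and 1.07 ± 0.06; adjusted p = 6.67e-17 and 6.82e-17, edgeR). For both genes the APC libraries stood apart from the other 6, which lay close together.

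The other collagen receptor subunit with substantial reads, ITGA1, went the other way. It read 2.81, 2.87 and 3.14 RPKM in APC, 11.3, 11.3 and 11.2 in CONTROL and 7.11, 8.02 and 7.77 in SW480. APC was 2.54-fold lower than SW480 (log2 fold change −1.34 ± 0.06; adjusted p = 2.85e-19, edgeR) and 3.80-fold lower than CONTROL (−1.93 ± 0.06; adjusted p = 2.51e-24, edgeR), while CONTROL was higher than SW480 (0.58 ± 0.05; adjusted p = 3.9e-11, edgeR). The 3 lines did not overlap in any pair. ITGA7, a laminin receptor subunit best known from muscle, had the largest fall of the alpha integrins, at 2.89, 2.33 and 2.76 RPKM in APC, 17.8, 19.4 and 17.4 in CONTROL and 17.7, 18.6 and 16.8 in SW480. This was 6.50-fold below SW480 (log2 fold change −2.70 ± 0.07; adjusted p = 2.27e-26, edgeR) and 6.76-fold below CONTROL (−2.76 ± 0.07; adjusted p = 1.31e-26, edgeR). The smooth muscle markers summed to 2.03 to 3.04 CPM in APC, 6.70 to 7.36 in CONTROL and 8.32 to 9.06 in SW480. Only DES was lower in APC in both comparisons (log2 fold changes −5.42 against SW480 and −5.06 against CONTROL). MYH11 was called in neither (−0.14 and −0.03; adjusted p = 0.513 and 0.915, edgeR), and CNN1 lay below the level tested. The sum therefore does not show a fall of these markers as a group. Their part in the ITGA7 result was not tested.

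Of the remaining alpha subunits, ITGA3 was 1.19-fold higher than in SW480 and 1.19-fold higher than in CONTROL (log2 fold changes 0.25 ± 0.04 and 0.25 ± 0.04; adjusted p = 2.9e-07 and 2.88e-07, edgeR). ITGA10, a collagen receptor subunit of cartilage, was called higher in both comparisons at under 0.4 RPKM in every library. The fibronectin receptor subunit ITGA5 was higher in APC than in SW480 (0.19 ± 0.05) and lower than in CONTROL (−0.21 ± 0.05). ITGAM, a leukocyte subunit, had 16, 21 and 17 counts in the APC libraries, 1, 0 and 1 in CONTROL and 1, 2 and 0 in SW480. As a ratio of depth-scaled counts this was 27.6 to CONTROL (95% counting interval 7.28 to 234) and 18.5 to SW480 (6.01 to 92.7), intervals that cover counting error only. ITGA2B and ITGAE were called lower than in SW480, by −0.67 and −0.17 on the log2 scale, and were not called against CONTROL.

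**Figure D4:**
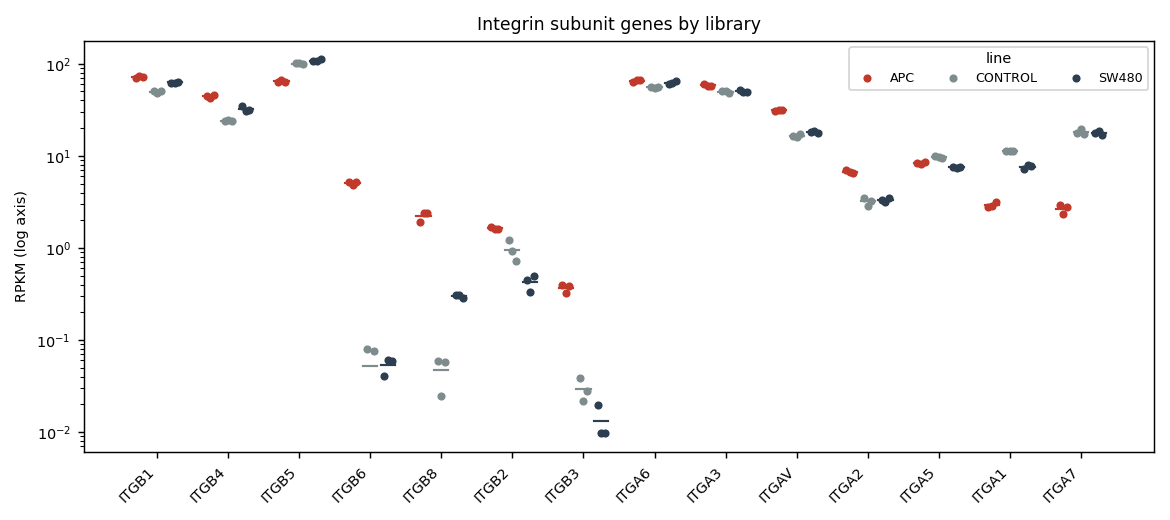
RPKM per library (log axis) of the 7 beta and 7 of the alpha integrin genes tested. Points are libraries and lines group means, and a CONTROL library with 0 RPKM for ITGB6 cannot be drawn on the log axis. ITGB6, ITGB8 and ITGB3 lie far higher in APC, ITGA1 and ITGA7 lie lower, and ITGB1, ITGA6 and ITGA3 stay within a narrow range of levels.

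Type IV collagen, the collagen network of basement membranes, is built from chains whose genes lie in head-to-head pairs. COL4A2 stood at 2.37, 2.52 and 2.32 RPKM in APC, 5.51, 5.49 and 5.82 in CONTROL and 4.09, 3.75 and 4.10 in SW480. It was 1.62-fold lower than in SW480 (log2 fold change −0.69 ± 0.07; adjusted p = 3.88e-11, edgeR) and 2.31-fold lower than in CONTROL (−1.21 ± 0.06; adjusted p = 6.44e-18, edgeR). CONTROL lay above SW480, and no libraries of different lines overlapped. Its partner COL4A1, whose product normally joins that of COL4A2 in 1 trimer, had 4, 5 and 5 counts in the APC libraries, 2, 3 and 3 in CONTROL and 3, 3 and 0 in SW480, and was too low to be tested. The mean RPKM of COL4A2 was 67.3 times that of COL4A1 in APC, 279 times in CONTROL and 270 times in SW480, ratios that rest on these few COL4A1 reads.

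The start windows of this pair are printed because the genes share them. In RefSeq on GRCh38.p14 the starts are 127 bases apart on opposite strands, and the windows share 226 identical bases, in capitals below, each read 5′ to 3′ on its own strand. COL4A1 is at chr13:110307108-110307407 on the minus strand and COL4A2 at chr13:110307034-110307333 on the plus strand.
COL4A1: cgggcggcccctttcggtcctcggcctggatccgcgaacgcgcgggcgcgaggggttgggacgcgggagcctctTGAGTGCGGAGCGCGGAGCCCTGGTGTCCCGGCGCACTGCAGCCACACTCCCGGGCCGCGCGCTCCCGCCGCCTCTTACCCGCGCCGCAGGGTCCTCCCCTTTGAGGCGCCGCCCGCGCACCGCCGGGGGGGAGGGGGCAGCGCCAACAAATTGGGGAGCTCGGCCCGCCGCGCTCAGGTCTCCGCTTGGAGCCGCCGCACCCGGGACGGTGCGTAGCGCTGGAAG
COL4A2: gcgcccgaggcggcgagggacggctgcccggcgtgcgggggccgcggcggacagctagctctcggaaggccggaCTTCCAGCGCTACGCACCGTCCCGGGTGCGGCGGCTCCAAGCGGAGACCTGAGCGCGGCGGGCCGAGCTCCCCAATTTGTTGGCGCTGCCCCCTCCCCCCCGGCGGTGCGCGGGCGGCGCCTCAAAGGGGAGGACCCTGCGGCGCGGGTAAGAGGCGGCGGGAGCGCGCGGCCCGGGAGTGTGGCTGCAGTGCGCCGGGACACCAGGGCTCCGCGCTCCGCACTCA
Neither window held the AP-1 or TCF/LEF motifs, which says only that those letters are not there.

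The second head-to-head pair, COL4A3 and COL4A4, encodes chains of the kidney glomerular basement membrane and was higher in APC as a pair. COL4A4 had 53, 40 and 42 counts in the APC libraries, 7, 10 and 7 in CONTROL and 2, 2 and 3 in SW480 (log2 fold changes 4.28 ± 0.35 against SW480 and 2.51 ± 0.27 against CONTROL; adjusted p = 8.25e-13 and 5.28e-10, edgeR). COL4A3 had 11, 16 and 15 counts in APC, 9, 8 and 4 in CONTROL and 0, 3 and 3 in SW480 (2.82 ± 0.54 and 1.03 ± 0.40; adjusted p = 2.06e-05 and 0.024, edgeR). The levels of both were under 0.25 RPKM in every library.

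The chains of type VI collagen were also at unequal levels. Its beaded filament needs the COL6A1, COL6A2 and COL6A3 chains together, and COL6A1 far exceeded the others, at 40.2, 37.4 and 40.6 RPKM in APC, 13.3, 13.7 and 13.3 in CONTROL and 22.5, 20.9 and 18.9 in SW480. COL6A1 was 1.94-fold higher than in SW480 (log2 fold change 0.96 ± 0.05; adjusted p = 1.66e-17, edgeR) and 2.96-fold higher than in CONTROL (1.57 ± 0.05; adjusted p = 1.77e-22, edgeR). COL6A3, at 0.512, 0.456 and 0.579 RPKM in APC, 0.678, 0.647 and 0.722 in CONTROL and 0.881, 0.950 and 0.927 in SW480, was lower in APC in both comparisons (−0.80 ± 0.10 and −0.40 ± 0.11; adjusted p = 2.34e-08 and 0.00185, edgeR). COL6A2 was called in neither (−0.09 ± 0.21 and 0.28 ± 0.23; adjusted p = 0.71 and 0.286, edgeR). The ratio of mean COL6A1 to mean COL6A2 RPKM was thus 77.3 in APC, 31.4 in CONTROL and 37.2 in SW480. For type I collagen, the main fibrillar collagen of connective tissue, COL1A1 was at 1.88, 1.73 and 1.79 RPKM in APC, 1.47, 1.61 and 1.84 in CONTROL and 1.92, 2.06 and 1.94 in SW480, and COL1A2 had 0, 0 and 1 counts in APC, 1, 0 and 0 in CONTROL and 7, 7 and 3 in SW480.

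**Figure D5:**
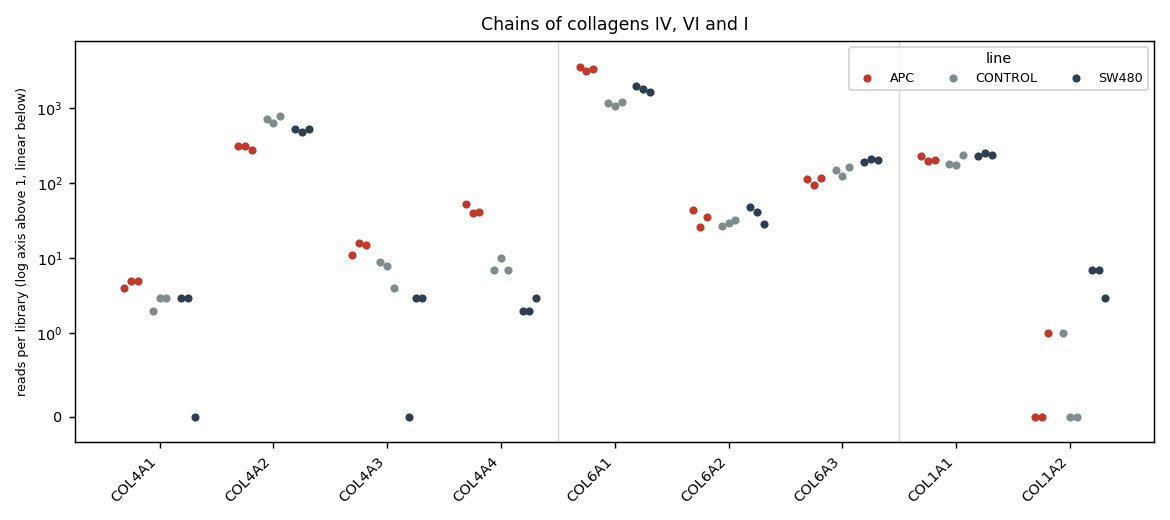
Reads per library (vertical axis, log above 1 and linear below it) for chains of collagens IV, VI and I that belong to the same trimers. Points are libraries of APC, CONTROL and SW480, from left to right within a gene. COL4A2 has 283 to 796 reads beside 5 or fewer for COL4A1, COL6A1 exceeds COL6A2 and COL6A3 in every library, and COL1A2 reaches 7 reads only in SW480.

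COL9A3, a chain of a cartilage collagen, had the highest collagen level per length in APC and SW480, at 55.3, 44.3 and 47.1 RPKM in APC, 36.1, 34.7 and 35.4 in CONTROL and 139, 117 and 104 in SW480. APC lay between the other lines without overlap, 2.40-fold below SW480 (log2 fold change −1.26 ± 0.13; adjusted p = 8.54e-05, edgeR) and 1.39-fold above CONTROL (0.48 ± 0.13; adjusted p = 0.017, edgeR). COL18A1, the basement membrane collagen from which endostatin is cut, led in CONTROL and read 33.0, 29.3 and 29.3 RPKM in APC, 49.2, 51.5 and 48.8 in CONTROL and 62.4, 51.4 and 49.8 in SW480. APC was 1.75-fold lower than SW480 and 1.62-fold lower than CONTROL (log2 fold changes −0.80 ± 0.09 and −0.69 ± 0.09; adjusted p = 0.000116 and 0.000303, edgeR), below all libraries of both. Summed collagen RPKM was 139 ± 9.30 in APC, 134 ± 0.397 in CONTROL and 233 ± 27.4 in SW480 (SD, n = 3 each, not tested), of which COL9A3 alone averaged 48.9 RPKM in APC, 35.4 in CONTROL and 120.1 in SW480.

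COL13A1, a transmembrane collagen, and COL16A1, a collagen that associates with fibrils, were also lower. COL13A1 stood at 4.53, 5.67 and 4.49 RPKM in APC, 16.4, 15.5 and 16.7 in CONTROL and 15.5, 13.5 and 14.2 in SW480, 2.88-fold below SW480 and 3.29-fold below CONTROL (log2 fold changes −1.53 ± 0.07 and −1.72 ± 0.07; adjusted p = 8.02e-18 and 3.35e-19, edgeR). COL16A1 stood at 3.00, 2.33 and 2.78 RPKM in APC, 7.85, 7.64 and 7.70 in CONTROL and 11.5, 12.2 and 10.5 in SW480, 4.11-fold below SW480 and 2.83-fold below CONTROL (−2.04 ± 0.07 and −1.50 ± 0.07; adjusted p = 3.63e-21 and 2.19e-17, edgeR). For both genes the APC libraries lay under all others. COL8A2 and COL5A1 were lower in both comparisons at low levels, with COL8A2 at 0.0321, 0.0914 and 0.0579 RPKM in APC, 0.321, 0.388 and 0.422 in CONTROL and 0.283, 0.368 and 0.246 in SW480 (−2.26 ± 0.35 and −2.62 ± 0.33; adjusted p = 7e-07 and 1.71e-08, edgeR).

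COL27A1, a fibrillar collagen of cartilage, was higher in APC in both comparisons. It read 4.63, 3.95 and 4.56 RPKM in APC, 0.409, 0.550 and 0.598 in CONTROL and 0.960, 0.887 and 0.861 in SW480, 4.96-fold above SW480 (log2 fold change 2.31 ± 0.10; adjusted p = 6.77e-21, edgeR) and 8.50-fold above CONTROL (3.09 ± 0.11; adjusted p = 4.73e-23, edgeR). CONTROL was below SW480, so APC again stood on the far side of its parent. COL17A1, the transmembrane collagen of hemidesmosomes, had 14, 13 and 10 counts in APC, 4, 2 and 2 in CONTROL and 0, 0 and 0 in SW480. Against a floor of 3 counts per library, APC exceeded SW480 at least 4.22-fold, and COL17A1 was 4.59-fold higher than in CONTROL (2.20 ± 0.48; adjusted p = 0.000168, edgeR). COL12A1 had 18, 17 and 21 counts in APC, 4, 3 and 2 in CONTROL and 6, 3 and 5 in SW480 and was called higher in both comparisons (2.06 ± 0.38 and 2.63 ± 0.42; adjusted p = 1.15e-05 and 1.19e-06, edgeR). The COL12A1 difference from SW480 was not called by limma on log2(RPKM + 1) (0.08; adjusted p = 0.0588).

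Of the rest, COL7A1, the anchoring fibril collagen of epithelia, was 1.64-fold higher in APC than in CONTROL (log2 fold change 0.72 ± 0.10; adjusted p = 4.17e-07, edgeR) and was not called against SW480 (−0.13 ± 0.09; adjusted p = 0.174, edgeR). COL2A1, the main collagen of cartilage, read 0.140, 0.110 and 0.121 RPKM in APC, 0.0841, 0.0636 and 0.0540 in CONTROL and 0.323, 0.425 and 0.140 in SW480. The SW480 libraries were spread widely, and the lowest of them lay at the top of the APC range. APC was lower than SW480 (−1.21 ± 0.32; adjusted p = 0.00132, edgeR), and its difference from CONTROL missed the threshold (0.89 ± 0.45; adjusted p = 0.0817, edgeR). The difference from CONTROL was called with the 6 libraries of the comparison alone (adjusted p = 0.0342, edgeR) and without SW480 replicate 3 (adjusted p = 0.0373, edgeR). COL5A3 was called lower than in SW480 alone (−1.23 ± 0.40), at under 0.2 RPKM in every library.

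Among the other matrix genes, THBS1, which encodes thrombospondin-1, was higher and FN1, which encodes fibronectin, was lower. THBS1 stood at 23.4, 22.7 and 23.6 RPKM in APC, 5.17, 5.22 and 4.48 in CONTROL and 4.41, 4.71 and 5.35 in SW480. It was 4.92-fold higher than in SW480 (log2 fold change 2.30 ± 0.06; adjusted p = 4.31e-23, edgeR) and 4.73-fold higher than in CONTROL (2.24 ± 0.06; adjusted p = 8.04e-23, edgeR). The CONTROL and SW480 libraries of THBS1 overlapped (0.06 ± 0.07; adjusted p = 0.509, edgeR).

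FN1 stood at 6.84, 6.64 and 6.93 RPKM in APC, 17.5, 15.9 and 16.4 in CONTROL and 17.2, 19.4 and 18.2 in SW480, 2.63-fold below SW480 (log2 fold change −1.39 ± 0.05; adjusted p = 1.1e-23, edgeR) and 2.42-fold below CONTROL (−1.27 ± 0.05; adjusted p = 1.7e-22, edgeR). FBLN1, which encodes the fibronectin-binding protein fibulin-1, read 1.76, 2.28 and 1.82 RPKM in APC, 9.05, 8.78 and 9.53 in CONTROL and 11.6, 10.3 and 10.1 in SW480. It was 5.35-fold below SW480 and 4.64-fold below CONTROL (−2.42 ± 0.09 and −2.22 ± 0.10; adjusted p = 6.92e-22 and 1.84e-20, edgeR). For both genes the highest APC library was under the lowest of the other 6. Both are also abundant in fibroblasts, whose marker values are given above.

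TNC, which encodes the anti-adhesive glycoprotein tenascin-C, read 7.24, 7.11 and 7.03 RPKM in APC, 0.602, 0.627 and 0.580 in CONTROL and 2.61, 2.82 and 2.95 in SW480. The clones lay on opposite sides of the parent with no overlap: APC was 2.61-fold above SW480 (log2 fold change 1.38 ± 0.05; adjusted p = 1.69e-21, edgeR), CONTROL 4.58-fold below it (−2.19 ± 0.08; adjusted p = 4.89e-21, edgeR), and APC 11.9-fold above CONTROL (3.58 ± 0.07; adjusted p = 4.95e-30, edgeR). SPARC, a collagen-binding matricellular gene, read 3.14, 3.88 and 3.78 RPKM in APC, 3.63, 3.54 and 3.31 in CONTROL and 9.04, 8.95 and 8.30 in SW480. It was 2.39-fold lower in APC than in SW480 (−1.25 ± 0.07; adjusted p = 5.21e-17, edgeR), with APC and CONTROL overlapping (0.05 ± 0.08; adjusted p = 0.591, edgeR) and CONTROL 2.47-fold below SW480 (−1.31 ± 0.07; adjusted p = 1.81e-16, edgeR).

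The basement membrane components HSPG2 (perlecan) and NID1 (nidogen-1, a link between laminin and type IV collagen) moved in opposite directions. HSPG2 was 1.38-fold higher than in SW480 and 1.77-fold higher than in CONTROL (log2 fold changes 0.46 ± 0.06 and 0.83 ± 0.06; adjusted p = 7.76e-08 and 4.15e-12, edgeR). NID1, at 2.69, 2.69 and 2.65 RPKM in APC, 3.67, 3.23 and 3.25 in CONTROL and 3.63, 3.83 and 3.96 in SW480, was 1.39-fold lower than in SW480 and 1.25-fold lower than in CONTROL (−0.48 ± 0.07 and −0.33 ± 0.07; adjusted p = 3.01e-07 and 0.000143, edgeR).

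The vector line separates members whose level differs from the parent in the APC line from members that differ in both clones. The same split was not made over all genes, so it is not read as particular to the members. Of all genes tested, 25.3% were higher and 24.7% lower in CONTROL than in SW480. Of the 25 members higher in APC in both comparisons, 8 were not called between CONTROL and SW480, among them ITGB6, ITGA2 and THBS1. In 6, CONTROL was also above SW480 (COL17A1, COL4A3, COL4A4, ITGB2, LAMA3 and LAMB3), and in 11 CONTROL was below it, among them ITGB4, ITGB8, TNC and COL6A1. Of the 15 lower members, 6 were not called between CONTROL and SW480, among them ITGA7 and NID1. In 6, CONTROL was also lower (COL16A1, COL6A3, FBLN1, FN1, ITGB5 and LAMB2), and in 3 it was higher (COL13A1, COL4A2 and ITGA1). The small CONTROL differences of ITGB5 (−0.09 ± 0.04; adjusted p = 0.0489, edgeR), FN1 (−0.12 ± 0.04; adjusted p = 0.0185, edgeR) and FBLN1 (−0.20 ± 0.07; adjusted p = 0.0154, edgeR) lost their call under several alternatives, DESeq2 included (adjusted p = 0.0802, 0.0661 and 0.0826). With limma on log2(RPKM + 1), COL4A4 and COL13A1 were not called between CONTROL and SW480 (adjusted p = 0.44 and 0.093). NID1 was called between them without CONTROL replicate 1 or without SW480 replicate 1 (adjusted p = 0.0247 and 0.0331, edgeR).

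The 35 members too low to be tested were 21 collagens, 7 alpha integrins (ITGA4, ITGA8, ITGA9, ITGA11, ITGAD, ITGAL and ITGAX), ITGB7, 5 laminins (LAMA1, LAMA2, LAMA4, LAMB4 and LAMC3) and NID2. Of these, 7 had no count in any library. LAMA4 had 2, 5 and 7 counts in the APC libraries, 0, 0 and 0 in CONTROL and 0, 1 and 1 in SW480, and LAMB4 had 3, 6 and 2 in APC, 0, 0 and 0 in CONTROL and 0, 0 and 0 in SW480. ITGA11 had 1, 1 and 1 counts in APC, 6, 8 and 3 in CONTROL and 6, 3 and 2 in SW480. At such counts no difference was tested.

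Genes that act with these members were counted from 4 lists. Of 26 tested genes for collagen modification and processing, 13 were higher and 9 lower in APC in both comparisons, where 27.8% of all genes were higher and 28% lower in both, a background that applies to each of the 4 lists. P4HA2, a prolyl hydroxylase that stabilises the collagen helix, stood at 48.8 ± 0.226 RPKM in APC, 30.9 ± 0.834 in CONTROL and 26.0 ± 0.442 in SW480 (mean ± SD, n = 3 each, here and below). CRTAP, a part of the complex that modifies a proline of fibrillar collagens, stood at 14.3 ± 0.410 RPKM in APC, 30.5 ± 0.667 in CONTROL and 33.1 ± 0.894 in SW480. LOXL2 and LEPREL1 were among the higher genes and GLT25D2 and ADAMTS14 among the lower.

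Of 34 tested genes of the integrin adhesion complex, 11 were higher and 15 lower in both comparisons, the share of higher genes being near the 27.8% of all genes. TNS3, a tensin that links integrins to actin, stood at 28.2 ± 0.362 RPKM in APC, 10.6 ± 0.180 in CONTROL and 10.9 ± 0.116 in SW480, while its relative TNS1 stood at 0.846 ± 0.0601 RPKM in APC, 1.73 ± 0.0863 in CONTROL and 2.96 ± 0.102 in SW480. These members of 1 family thus moved in opposite directions. NEDD9 and VCL were also higher, and LIMS1 and FERMT2 lower.

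Of 19 tested genes for further matrix proteins, 3 were higher and 8 lower in both, beside 27.8% and 28% of all genes. NTN4, which encodes a netrin of basement membranes, stood at 5.96 ± 0.301 RPKM in APC, 0.378 ± 0.0204 in CONTROL and 0.509 ± 0.0809 in SW480, and CTGF, a matricellular growth factor gene, at 0.800 ± 0.185 RPKM in APC, 6.92 ± 0.332 in CONTROL and 10.9 ± 0.629 in SW480. TGFBI and LTBP3 were the other higher genes, and MATN2 and ECM1 were among the lower. Of 10 tested matrix receptors that are not integrins, 4 were higher and 4 lower in both, beside the same shares of all genes. SDC4, a heparan sulphate syndecan of focal adhesions, stood at 261 ± 4.74 RPKM in APC, 53.7 ± 1.24 in CONTROL and 53.9 ± 2.24 in SW480, and SDC3, another syndecan, at 5.93 ± 0.113 RPKM in APC, 13.7 ± 0.141 in CONTROL and 25.2 ± 0.519 in SW480. CD44 and the laminin receptor BCAM were also higher, and LRP1 and GPC1 lower. The median log2 fold changes of the lists against SW480 were 0.17, −0.14, −0.82 and −0.14 in the order given, and against CONTROL 0.19, −0.06, −0.29 and 0.06, beside −0.01 for all genes in both comparisons.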

How the data were processed

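The authors deposited whole-number read counts per RefSeq transcript, not normalised, and RPKM values for the same 9 libraries. The deposited RPKM was the deposited count over transcript length and a scaling constant of each library (match in 100%, to a relative tolerance of 0.0001). Trimmomatic, TopHat and GATK (no versions) and build hg19 are named per the submitters' processing notes. Not given in the sources used here are the counting tool, annotation and use of strand, so reads of a gene and an overlapping or antisense gene cannot be told apart. Reads on shared exons were counted for every transcript holding them, and 1 transcript per gene, that with the highest total, was used here (30 of the 87 genes had more than 1). Of 65 transcripts with names altered to dates, 62 were repaired.

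Counts were tested in 1 fit of all 9 libraries with edgeR 4.0.16 in R 4.3.3 (TMM, filterByExpr, robust quasi-likelihood), over 14255 genes, with Benjamini-Hochberg adjustment at 0.05. Each SE is the log2 fold change over the square root of its F statistic. Plates of 1 line differed beyond sampling noise (chi-square per degree of freedom 1.34 to 5.38), and each plate was counted as a sample. With 3 libraries a group, the smallest two-sided p of an exact permutation test is 0.1. On simulated data with 200 of 14255 genes changed, 2-fold changes were recovered at 97% in APC beside SW480, 90% in APC beside CONTROL and 96% in CONTROL beside SW480, and 1.5-fold changes at 75%, 82% and 79% in the same order (100 genes per size), with 9 to 12 unchanged genes called. The simulation changed far fewer genes than were called in the data, with as many raised as lowered, so its rates need not hold for these comparisons. Where the lower group had at most 3 counts, ratios carry an exact 95% counting interval, and 0 counts were set to 3 per library.

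Genes given in every library were 14 fixed genes (1 of which is not reported here), the 12 per direction with the largest smaller change of the APC comparisons, the 8 with the largest CONTROL change (mean of at least 1 CPM in the higher group), and the highest of each family per line. The remaining genes with values in the text (ITGAV, ITGA2, ITGA3, ITGA5, ITGA10, COL4A3, COL17A1, COL6A1, COL1A1, COL1A2, HSPG2 and others) were chosen after their values were seen. The members, the lists and the motifs were chosen with earlier results of these data known. Alternatives were DESeq2 1.42.0, RLE factors, no count filter, counts summed over transcripts, limma 3.58.1 on log2(RPKM + 1) and log2(RPKM + 0.1), fits of 6 libraries, a replicate block, a 2-fold minimum and leaving out each library.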

Additional observations from a re-analysis of the deposited data

How the results depend on the processing

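The 35 tested genes named by the rule gave 1780 pairs of a comparison and an alternative. In none did the direction reverse where the main fit or the alternative made a call. Sign changes where neither made a call were not counted. In 1743 pairs the gene stayed on the same side of the threshold, called or not, in 31 it lost its call and in 6 it gained one. Most of these gains and losses were small CONTROL against SW480 differences. Requiring a fitted fold change of at least 2, which is a stricter rule by construction, left 2716 genes in APC beside SW480, 2611 in APC beside CONTROL and 698 in CONTROL beside SW480. Among the members it left 17 higher and 13 lower than in SW480 and 17 and 9 than in CONTROL for the APC line, 5 and 5 for CONTROL beside SW480, and 15 higher and 8 lower in both APC comparisons. All genes passing this minimum in both APC comparisons were not counted. The 15 and 8 members therefore have no share of all genes beside them and are not read as particular to the members. With limma on log2(RPKM + 1) or log2(RPKM + 0.1), 6 members were higher in CONTROL than in SW480, against 10 with edgeR, and the cause was not tested. Over all genes, in either direction, limma called 6763 and 6712 between these lines, against 7131 with edgeR.

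Leaving out each library in turn gave 9916 to 10389, 9449 to 10262 and 6185 to 7299 genes called, in the order used above. The members called in those comparisons ranged from 26 to 27, 27 to 30 and 9 to 10 higher, and from 19 to 22, 16 to 16 and 19 to 27 lower, with 24 to 25 higher and 15 to 15 lower in both APC comparisons. Deviations of libraries with the same replicate number correlated at −0.089 to 0.159. Libraries with different numbers were not compared, so these values cannot decide whether the numbers mark a pairing. With a replicate block, 26 members were higher and 21 lower in APC than in SW480, 28 and 16 than in CONTROL, and 10 and 23 in CONTROL beside SW480. The counts of genes were 10297, 9993 and 7109. Scalings moved the median of all genes by at most 0.03 on the log2 scale. Depth limits the 35 untested members and the ratios that rest on a few reads.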
